A study of Mus musculus with 14 samples.

Results

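Gene deserts, the long stretches between genes, were examined for binding of the histone methyltransferase G9a and for the histone marks H3K9me2 and H3K27me3 in mouse heart muscle. A listed region was taken as a desert region when it lay on chromosomes 1 to 19 and its midpoint was more than 500 kb from the body of every protein-coding gene in mm10 (GRCm38). This rule took 89687 of the 1186054 regions in the 3 deposited tables: 20598 of G9a, 29361 of H3K9me2 and 39728 of H3K27me3. They fell into 248 deserts that together spanned 201 Mb, or 8.38% of the autosomes, and they made up 7.61% of the autosomal regions. The deserts had a median length of 496 kb, 72 were longer than 1 Mb and 27 longer than 2 Mb. The remaining 1089127 autosomal regions are called the rest.

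Cells enriched for cardiomyocytes were taken from C57BL/6J mice 1 week after transverse aortic constriction (TAC), a surgical narrowing of the aorta that loads the left heart with pressure, or from sham mice, labelled as untreated. Each of the antibodies against G9a, H3K9me2 and H3K27me3 was used on 2 biological replicates of TAC and 2 of sham, giving 12 libraries, and the 2 input libraries were not used here. There is 1 deposited table per antibody. It holds regions called different between TAC and sham, and each region carries 4 whole-number values, split into a first and a second pair of libraries. The tables' titles mention sham ahead of TAC. No source used here says that the pairs were written in that order, or which replicate is which within a pair. Differences are therefore given as higher in the second or in the first pair, all log2 values are second over first pair, and a statement about TAC and sham cannot be drawn from them. The labels do not say whether a replicate was 1 heart or a pool, nor the sex or age of the mice. The p-values computed here therefore measure the spread between these libraries. How the authors' deposited p-values were computed, and what spread they measure, is not stated in any source used here.

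In mammalian genomes, some deserts hold distant enhancers that act on a developmental gene at their border, while many others hold few sequences that are conserved among vertebrates. Much of this sequence is packed as silent chromatin at the nuclear periphery and is copied late in S phase. G9a, encoded by Ehmt2, works with its partner GLP and places H3K9me2, a mark that forms wide blocks in silent chromatin. H3K27me3 is placed by Polycomb complexes with the enzyme Ezh2 or Ezh1, most densely over silent developmental regulators and at low density over long intergenic stretches.

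The sequences that could be tied to desert regions were those of noncoding genes. Of the 21 miRNA genes inside deserts, 15 had a region over them or within 2500 bp, and all 15 had a mature sequence in RefSeq (GRCm38.p6). The 7 shown here stand in the 3 deserts whose miRNA regions are described below. They are written 5′ to 3′ with the seed, bases 2 to 8, in capitals. The first 3 belong to the Mir344 cluster of chromosome 7 and share the seed GUCAGGC. The miR-344h arm, which Mir344h-1 and Mir344h-2 both give, has another seed. Those of Mir135a-2 and Mir1251 lie in 1 desert of chromosome 10, and that of Mir3961 next to Mef2c on chromosome 13. All are on the minus strand in GRCm38: miR-344b-5p at chr7:61790556-61790578, miR-344c-5p at chr7:61837363-61837385, miR-344d-3-5p at chr7:61726296-61726318, miR-344h-5p at chr7:61739390-61739409 and chr7:61742406-61742425, miR-135a-5p at chr10:92072141-92072163, miR-1251-5p at chr10:92137190-92137210 and miR-3961 at chr13:82698278-82698296.
miR-344b-5p: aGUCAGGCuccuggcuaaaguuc
miR-344c-5p: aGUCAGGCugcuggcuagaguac
miR-344d-3-5p: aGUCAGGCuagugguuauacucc
miR-344h-5p: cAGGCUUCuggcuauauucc
miR-135a-5p: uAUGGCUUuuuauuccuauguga
miR-1251-5p: aCUCUAGCugccaaaggcgcu
miR-3961: uGCCCUCAgcucaguugga

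RefSeq also gave a promoter window, from 250 bases before to 50 after the annotated start, for 205 noncoding genes inside deserts, and 94 of these windows lay under a region of any table. The windows were poor in the dinucleotide CG, which reads the same on either strand. The median desert window held 2 CG at a GC content of 42%, against 7 CG and 52.7% over all 27025 promoter windows and 4 CG and 48.7% over 9328 windows of lncRNA genes outside deserts. A CG occurred in 80.5% of the desert windows and in 94.2% of all windows. The 6 windows printed here, with CG in capitals, were chosen after their values were seen: for each table and direction, the lncRNA promoter under the region with the smallest deposited p. They are Gm36667 (chr5:133598377-133598676, minus strand), Gm6634 (chr3:70807242-70807541, minus strand), LOC108169192 (chr6:68880650-68880949, minus strand), Gm33758 (chr3:143603522-143603821, plus strand), C230079O03Rik (chr7:136349366-136349665, minus strand) and Gm30954 (chr8:7580182-7580481, minus strand), all in GRCm38.
Gm36667: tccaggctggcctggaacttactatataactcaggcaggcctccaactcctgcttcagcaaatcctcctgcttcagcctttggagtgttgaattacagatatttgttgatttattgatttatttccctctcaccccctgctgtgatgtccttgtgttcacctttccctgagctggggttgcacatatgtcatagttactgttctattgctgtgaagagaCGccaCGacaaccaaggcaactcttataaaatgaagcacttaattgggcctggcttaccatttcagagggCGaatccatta
Gm6634: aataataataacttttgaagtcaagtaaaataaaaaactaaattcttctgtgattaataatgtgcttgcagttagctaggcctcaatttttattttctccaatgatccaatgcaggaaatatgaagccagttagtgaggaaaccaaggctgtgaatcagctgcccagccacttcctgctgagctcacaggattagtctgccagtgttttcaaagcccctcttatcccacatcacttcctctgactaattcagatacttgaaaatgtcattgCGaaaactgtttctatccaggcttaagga
LOC108169192: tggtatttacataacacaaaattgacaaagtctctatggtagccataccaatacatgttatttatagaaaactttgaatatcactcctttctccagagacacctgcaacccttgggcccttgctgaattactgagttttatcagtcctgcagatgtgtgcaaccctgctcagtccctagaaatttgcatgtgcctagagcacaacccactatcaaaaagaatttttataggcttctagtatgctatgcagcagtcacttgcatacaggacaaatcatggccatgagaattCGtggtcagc
Gm33758: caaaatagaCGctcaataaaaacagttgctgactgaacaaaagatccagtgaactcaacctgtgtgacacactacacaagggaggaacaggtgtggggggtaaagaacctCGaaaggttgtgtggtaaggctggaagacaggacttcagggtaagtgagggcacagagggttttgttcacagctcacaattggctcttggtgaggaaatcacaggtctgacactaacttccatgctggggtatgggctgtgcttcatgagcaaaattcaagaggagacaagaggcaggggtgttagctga
C230079O03Rik: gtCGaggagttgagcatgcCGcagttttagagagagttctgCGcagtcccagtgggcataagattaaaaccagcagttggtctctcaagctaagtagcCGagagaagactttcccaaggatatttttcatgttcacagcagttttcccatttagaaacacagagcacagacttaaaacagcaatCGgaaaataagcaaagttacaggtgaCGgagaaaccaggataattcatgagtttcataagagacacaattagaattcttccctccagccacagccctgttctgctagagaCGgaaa
Gm30954: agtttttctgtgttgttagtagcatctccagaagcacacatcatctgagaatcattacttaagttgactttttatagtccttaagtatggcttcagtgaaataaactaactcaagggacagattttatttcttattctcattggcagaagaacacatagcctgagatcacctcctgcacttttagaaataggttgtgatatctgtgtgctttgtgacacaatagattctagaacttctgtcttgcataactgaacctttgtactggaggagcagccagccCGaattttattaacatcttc

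The sums of a library's listed values lay between 36881071 and 48327896 in the G9a table, between 22175663 and 23973355 in the H3K9me2 table, and between 112764904 and 143213031 in the H3K27me3 table. They are not sequencing depths, which are unknown here. Library 1 of the second G9a pair stood apart: 13.3% of its values in desert regions were 0, against 1.00% in library 2 of that pair and at most 1.1% in the first pair. The main G9a shares are therefore also given without it. At markers of the cell types such a preparation can hold, H3K27me3 regions lay within 2500 bp of a gene end at 0 of 12 cardiomyocyte markers, among them Myh6 and Tnnt2. They did so at 8 of 8 endothelial, 7 of 8 fibroblast, 7 of 8 leukocyte and 6 of 7 smooth muscle and pericyte markers, and at 61.2% of all 21887 protein-coding genes. The table lists only regions that differ, so a gene with none may still carry the mark, and these counts do not settle the cell type. In a mixed preparation, fewer cells of a type and less mark per cell cannot be told apart, and the part of other cell types in the results was not tested.

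H3K9me2 regions were denser in deserts than elsewhere, and those of G9a and H3K27me3 were sparser. H3K9me2 had 146 regions per Mb of desert against 97.4 per Mb in the rest of the autosomes, a ratio of 1.496. G9a had 102 per Mb against 167 (0.613) and H3K27me3 197 per Mb against 231 (0.855). By bases covered, H3K9me2 regions took 10.1% of the desert sequence and 6.52% of the rest, G9a regions 6.09% and 12.8%, and H3K27me3 regions 15.3% and 25.4%. Regions were found almost everywhere: 246 of the 248 deserts held a G9a region, 247 an H3K9me2 region and 246 an H3K27me3 region.

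G9a and H3K27me3 desert regions were mostly higher in the first pair, and H3K9me2 regions were nearly balanced. Of the G9a desert regions, 4783 (23.2%) were higher in the second pair and 15815 (76.8%) in the first, while 45.7% of the rest were higher in the second pair and 44.5% of all regions of the table were. Of the H3K27me3 desert regions, 7288 (18.3%) were higher in the second pair and 32440 (81.7%) in the first, with 44.7% of the rest and 42.7% of all regions higher in the second. H3K9me2 had 13785 (47.0%) higher in the second pair and 15576 (53.0%) in the first, which is near the 43.9% of the rest and the 44.4% of all its regions. The median log2 difference of desert regions was -1.0 for G9a, -0.58 for H3K9me2 and -1.07 for H3K27me3, against -0.64, -0.67 and -0.53 in the rest. These medians depend on all 4 libraries. With any 1 library left out, that of the H3K9me2 desert regions lay between -0.25 and -0.10, against -0.40 to -0.32 in the rest. For G9a it lay between -1.81 and -0.44 in deserts, against -0.68 to -0.02 in the rest, and for H3K27me3 between -1.25 and -0.89, against -0.45 to -0.07. Every listed region had passed the authors' p of 0.01 or less, so these shares are directions within a selected list and carry no test. The selection also shapes the medians. H3K9me2 desert regions higher in the first pair had a median log2 of -0.98, and those higher in the second 0.95. The -0.58 over both is therefore not a typical difference, and it moves with the share in either direction. Summed H3K9me2 desert values overlapped between the pairs, with 2862309 and 2924926 in the second and 2974215 and 2847412 in the first.

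The individual libraries gave the same picture. Of its listed G9a signal, library 1 of the second pair had 2.08% in deserts and library 2 had 3.42%, against 5.17% and 4.61% in the first pair. For H3K27me3 the shares were 2.66% and 2.60% in the second pair, against 5.06% and 4.97% in the first. For H3K9me2 they were 12.98% and 12.7% in the second pair, against 12.5% and 12.2% in the first. In all 3 tables the pairs did not overlap, and the gap was narrow for H3K9me2. An exact permutation test over the 4 libraries, two-sided, gave p = 0.333 in each table, which is the smallest that 2 against 2 libraries can give. Without library 1 of the second pair, 28.8% of G9a desert regions and 49.2% of the rest were higher in the second pair, and the median log2 difference of the desert regions was -0.44.

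**Figure D1:**
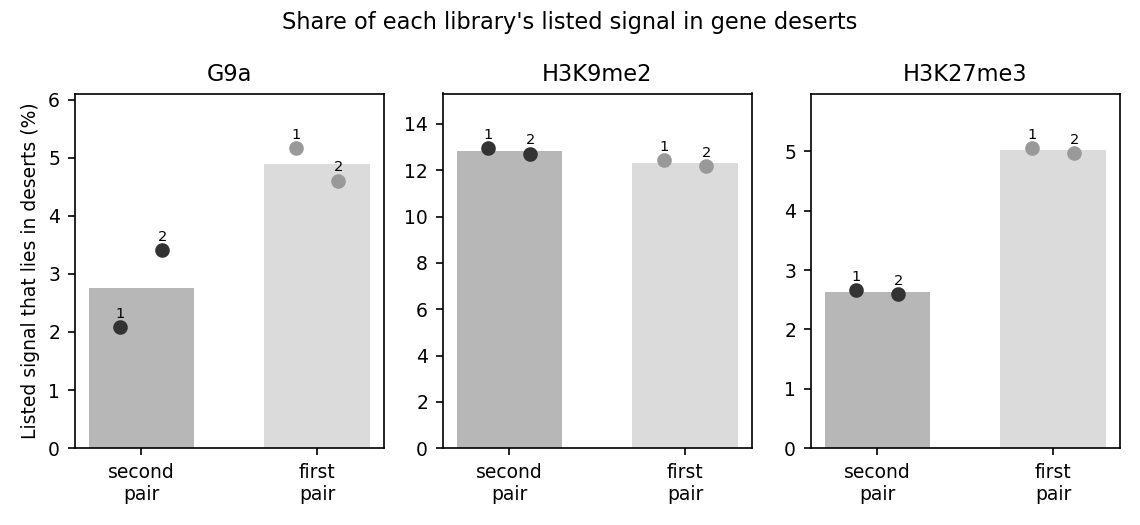
Share of each library's listed signal that lies in desert regions, in percent, for the 3 antibodies; points are the 2 libraries of a pair, numbered in the order of the table, and bars their mean. The second pair lies below the first for G9a (2.08% and 3.42% against 5.17% and 4.61%) and H3K27me3 (2.66% and 2.60% against 5.06% and 4.97%), and slightly above it for H3K9me2.

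Region by region, the libraries of a pair also differed from each other. Regions were counted as separated when both values of the higher pair exceeded both of the other. This held for 12906 G9a desert regions, or 62.7%, with 61.3% over the whole table. It held for 67.0% of H3K9me2 desert regions (67.9% of the table) and 72.2% of H3K27me3 desert regions (69.2% of the table), so separation was about as common in deserts as elsewhere. Separated regions higher in the second pair were 13.2% of G9a, 31.1% of H3K9me2 and 12.1% of H3K27me3 desert regions, with 28.1%, 29.4% and 30.5% over the whole tables. Those higher in the first pair were 49.5%, 35.9% and 60.1%, with 33.2%, 38.5% and 38.7% over the whole tables. The median absolute log2 difference between the 2 libraries of the second G9a pair was 1.51 in deserts, above the 1.13 between the pair means. In the rest these were 1.06 and 1.05. In H3K27me3 desert regions it was 0.836 within the second pair and 0.662 within the first, below the 1.15 between the pair means. In the rest it was 0.574 and 0.627, below 0.890. H3K9me2 desert regions had 0.730 and 0.692, below 0.965. Regions were listed for a difference between the pairs, so a larger difference between than within pairs carries no test.

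A limma fit on log2(value + 1) over all regions of a table called 0 desert regions at a Benjamini-Hochberg adjusted p of 0.05 for each antibody, as it called 0 over the whole tables. The lowest adjusted p among desert regions from limma was 0.461 for G9a, 0.191 for H3K9me2 and 0.106 for H3K27me3. At an unadjusted limma p of 0.05 there were 1243 G9a desert regions (6.03%, with 3.94% of all regions), all but 1118 of them higher in the second pair (1.27% of all regions were) and those 1118 in the first (2.67% of all). H3K27me3 had 8504 (21.4%, with 12.3% of all regions), 714 higher in the second pair (3.36% of all regions) and 7790 in the first (8.92% of all). H3K9me2 had 2257 (7.69%, with 8.75% of all regions), 917 higher in the second pair (3.13% of all regions) and 1340 in the first (5.62% of all). Without library 2 of the second G9a pair, limma called 4419 G9a desert regions (21.5%) at the adjusted threshold, with 56515 of all 388424 regions (14.5%) called in the same fit. Of the desert regions 9 were higher in the second pair and 4410 in the first. That fit sets the library with many values of 0 alone against the first pair, and takes the spread from the first pair only, assuming that the lone library varies likewise.

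The direction changed with the distance from genes. Of the H3K27me3 regions outside gene bodies, the share higher in the second pair was 47.5% up to 50 kb from a protein-coding gene, 40.3% at 100 to 250 kb and 32.7% at 250 to 500 kb. Inside the deserts it was 22.4% at 500 to 750 kb, 15.9% at 750 to 1000 kb, 13.8% at 1000 to 1500 kb and 13.3% beyond 1500 kb. The G9a shares were 53.5% up to 50 kb and 33.8% at 250 to 500 kb, and then 25.3%, 21.0%, 21.7% and 21.7% in the same 4 desert classes. H3K9me2 lay between 43.0% and 47.0% outside gene bodies up to 500 kb and between 45.9% and 50.5% in the desert classes. Just inside the limit, from 500 to 510 kb, and just outside it, from 490 to 500 kb, the shares were 29.5% and 29.1% for G9a, 45.4% and 46.9% for H3K9me2, and 24.6% and 28.2% for H3K27me3.

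**Figure D2:**
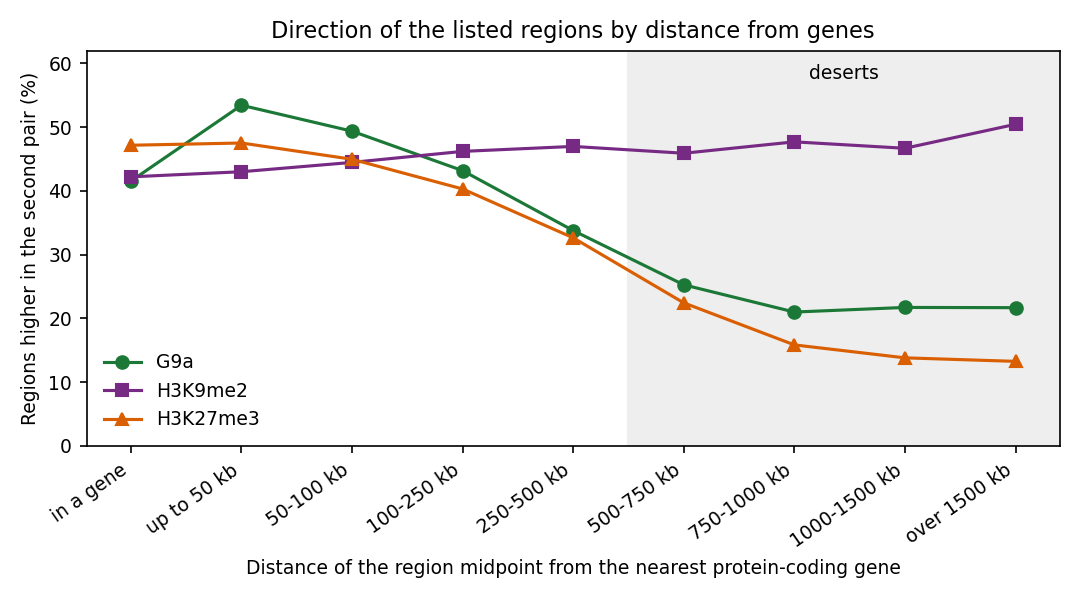
Share of listed regions that were higher in the second pair, in percent, by distance of the region midpoint from the nearest protein-coding gene, for G9a (circles), H3K9me2 (squares) and H3K27me3 (triangles); grey marks the deserts. The H3K27me3 line goes down to 13.3% beyond 1500 kb and the G9a line to 21.7%, while the H3K9me2 line stays between 42.2% and 50.5%.

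Every autosome showed the difference for G9a and H3K27me3. The desert share of regions higher in the second pair was below that of the rest on 19 of 19 chromosomes for both, and on 2 of 19 for H3K9me2. For H3K27me3 it ran from 10.4% on chromosome 16 to 30.0% on chromosome 19, and for G9a from 16.5% on chromosome 6 to 26.7% on chromosome 7. Long deserts leaned further to the first pair than short ones: H3K27me3 regions higher in the second pair were 32.1% in deserts of up to 0.25 Mb and 14.5% in those over 2 Mb. For G9a these shares were 30.5% and 20.6%, and for H3K9me2 47.5% and 48.0%.

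Single deserts were compared through the summed values of their regions, among those with 50 or more regions in a table. Both summed values of the second pair were below both of the first in 118 of 136 deserts for G9a and 149 of 170 for H3K27me3. In windows of 500 kb outside deserts this was so in 24.3% for G9a and 35.1% for H3K27me3. Both sums of the second pair were above both of the first in 2 deserts for G9a (28.4% of windows) and 3 for H3K27me3 (37.9% of windows). For H3K9me2 both second-pair sums were below both of the first in 48 of 146 deserts (35.3% of windows) and above both in 37 (24.4% of windows). The median log2 of the sums was -0.72 over the G9a deserts and -0.90 over the H3K27me3 deserts, against -0.09 and 0.03 over the windows, and 0.01 over the H3K9me2 deserts against -0.03.

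**Figure D3:**
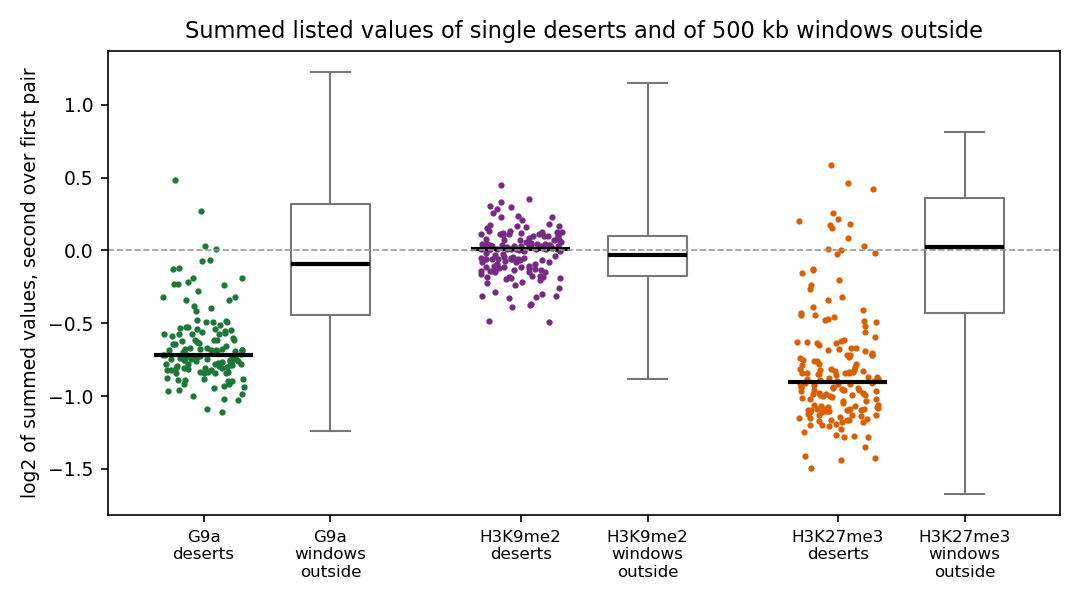
log2 of summed values, second over first pair, for each desert with 50 or more regions (points, with the median as a bar) and for 500 kb windows outside deserts (box with quartiles, whiskers to the extremes). The G9a and H3K27me3 deserts centre on -0.72 and -0.90, below the windows at -0.09 and 0.03, and the H3K9me2 deserts centre on 0.01.

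Several of the 10 deserts with most regions were bordered by genes of teneurins (Tenm2, Tenm3), protocadherins (Pcdh9, Pcdh17, Pcdh20) or cadherins (Cdh8, Cdh20), surface proteins that neurons use to recognise each other. The desert between Celf4, which encodes an RNA-binding protein, and Pik3c3 on chromosome 18 held 1833 regions in 3.51 Mb. Its H3K27me3 values summed to 91010 and 76476 in the second pair, against 138647 and 118285 in the first, and its G9a values to 13635 and 31136 against 36712 and 40349. Its H3K9me2 sums overlapped between the pairs, with 54386 and 56104 in the second and 55072 and 49753 in the first. The longest desert, 3.54 Mb between the protocadherin genes Pcdh20 and Pcdh9 on chromosome 14, had 46301 and 37190 against 93264 and 84899 for H3K27me3 and 9031 and 20365 against 27771 and 27754 for G9a, second pair against first. In each of the 10, both G9a and both H3K27me3 sums of the second pair were below those of the first.

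The 3 deserts with the largest H3K27me3 shares higher in the second pair lay next to Sall3, Mki67 and Sall1. In the desert between Sall3, a spalt-family zinc finger factor, and the galanin receptor gene Galr1 on chromosome 18, 70.4% of 196 H3K27me3 regions were higher in the second pair. The values summed to 76122 and 64551 in the second pair, against 48958 and 44820 in the first. The desert between Sall1, another spalt factor, and Tox3 had 63.7% of 91 regions higher in the second pair (35326 and 29951 against 25832 and 22911). That between Mki67, the gene of a proliferation antigen, and the DNA repair gene Mgmt had 64.2% of 81 (28032 and 23088 against 20817 and 16279). In these 3 deserts the libraries of the pairs did not overlap.

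At the other end, 3.67% of 218 H3K27me3 regions were higher in the second pair between Adam6a and Zfp386, which is the immunoglobulin heavy chain locus, and 4.35% of 207 between the adhesion molecule gene Alcam and Zpld1. In the Alcam to Zpld1 desert the sums were 10256 and 9403 in the second pair, against 28627 and 24796 in the first. For G9a the lowest share was 7.73% of 181 between the neural adhesion gene Ncam2 and Mrpl39 on chromosome 16, with sums of 4021 and 13079 in the second pair against 18513 and 18457 in the first. Next were Immp2l to Dnajb9 with 12.4% of 105 and Slitrk5 to Gpc5 with 12.6% of 183.

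The largest G9a share higher in the second pair was in a desert of chromosome 5. Between Auts2, a neurodevelopmental gene whose protein can join Polycomb complexes, and Castor2, of the arginine sensor family, 68.3% of 142 G9a regions were higher in the second pair. The sums were 19744 and 15521 in the second pair, against 10876 and 14348 in the first, so both libraries of the second pair were higher. The same desert had one of the lowest H3K9me2 shares, 29.6% of 54 regions, with 3701 and 4123 in the second pair and 5722 and 5306 in the first. Its H3K27me3 sums overlapped (21910 and 16850 in the second pair, 22994 and 19565 in the first). Mki67 to Mgmt followed for G9a with 56.1% of 57 regions, and sums of 6869 and 7258 in the second pair against 5637 and 6101 in the first.

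For H3K9me2 the shares ran from 28.6% to 65.8%, a narrower range than for G9a (7.73% to 68.3%). The highest share was 65.8% of 111 regions between Gm4868 and Tmem132c on chromosome 5, with sums of 13380 and 12857 in the second pair against 9797 and 9448 in the first. Gfra2 to Gm9195 had 62.7% of 67 and Ipmk to Zwint 62.3% of 53. The lowest was 28.6% of 63 regions between Cetn3 and Mef2c, a transcription factor gene needed for heart development, with 4181 and 4503 in the second pair and 6120 and 6032 in the first. Fat4 to Intu had 31.2% of 64, and in both deserts the second pair lay below the first in either library.

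Over deserts, the log2 of the G9a sums went with that of the H3K27me3 sums: Pearson's r was 0.642 and Spearman's rho 0.485 over 133 deserts, and r was 0.598 without the 2 deserts farthest from the G9a median. G9a with H3K9me2 gave r = -0.137 over 129 deserts, and H3K9me2 with H3K27me3 gave r = 0.0670 over 141. The points of each relation share their sequence, and with it base composition and mappability, and all deserts of a table share the same 4 libraries, so no p is given.

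**Figure D4:**
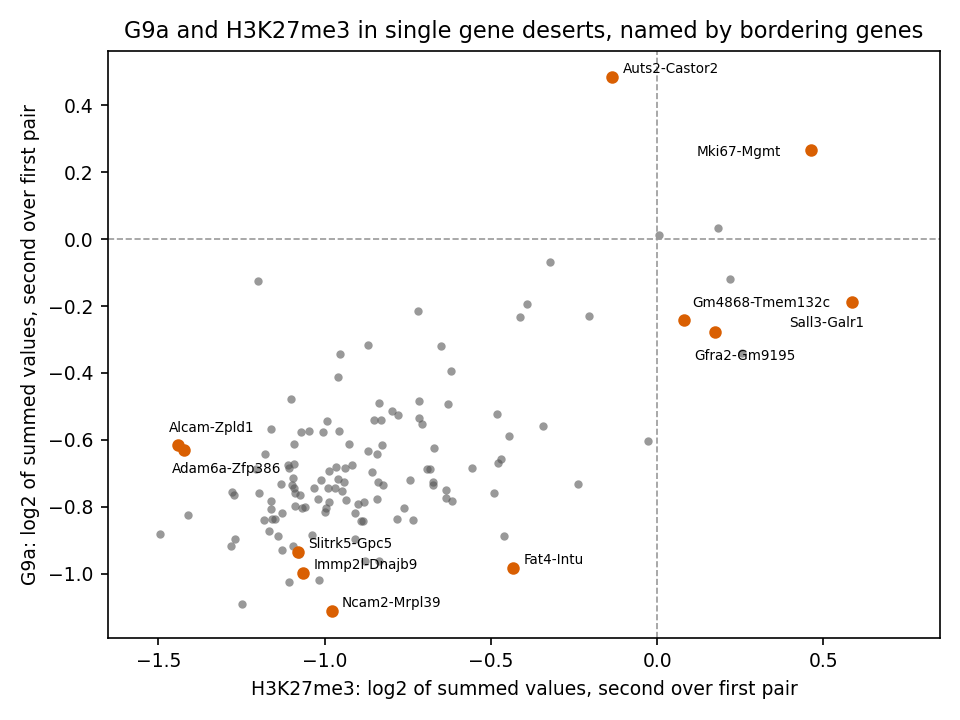
log2 of summed G9a values against log2 of summed H3K27me3 values, second over first pair, for the 133 deserts with 50 or more regions of both (r = 0.642); orange points are deserts named in the text for an extreme share in any table. Most deserts lie below 0 on both axes, and Mki67-Mgmt lies above 0 on both.

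Genes at the borders were counted from lists. Of 108 developmental transcription factor genes on chromosomes 1 to 19, 24 bordered a desert (22.2%), among them Sox2, Sox9, Irx1, Nr2f2, Isl1, Mef2c and Myc. Of 109 neuronal adhesion, guidance and synapse genes, 55 did (50.5%), among them Cdh8, Cdh10, Pcdh9, Robo1 and Tenm3. Of all 20665 protein-coding genes 457 did, or 2.21%. In the 25 deserts next to the regulators, 30.1% of 3007 H3K27me3 regions were higher in the second pair, against 17.4% in all other deserts. In the 65 deserts next to adhesion and synapse genes the share was 15.7% of 15963, against 20.1% in the others. For G9a the shares were 28.8% and 22.8% for regulators, and 21.8% and 24.3% for adhesion and synapse genes. The regulator deserts were short, with 12.7 Mb in all, and the adhesion and synapse deserts covered 86.0 Mb, or 42.7% of the desert length. Whatever their borders, deserts of 0.25 to 0.5 Mb had 28% of H3K27me3 regions higher in the second pair, and those of 0.5 to 1 Mb 20.4%. The part of desert length in these contrasts was not tested.

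For G9a and H3K27me3, the gap between deserts and the rest was widest among regions of 2 to 5 kb. Of the G9a regions of 2 to 5 kb, 7 of 24 in deserts were higher in the second pair (29.2%), against 94.9% of 10995 in the rest. For H3K27me3 these were 224 of 814 (27.5%) in deserts, against 80.5% of 40372 in the rest. For H3K9me2 they were 56 of 77 (72.7%), against 61.4% of 741. Narrow regions differed less: below 0.5 kb, 18.8% of H3K27me3 desert regions were higher in the second pair, against 34.8% of the rest. No G9a region of 5 kb or more lay in a desert, against 677 in the rest.

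**Figure D5:**
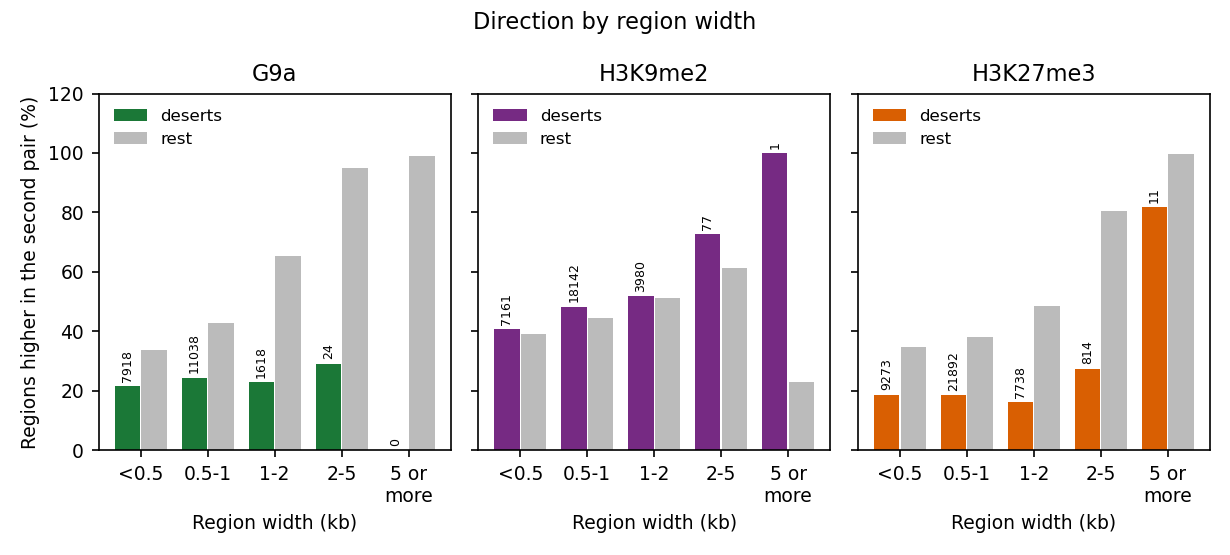
Share of regions higher in the second pair, in percent, by region width, for deserts (coloured, with the number of regions above the bar) and the rest of the autosomes (grey). In the class of 2 to 5 kb the desert bars stand at 29.2% for G9a and 27.5% for H3K27me3, against 94.9% and 80.5% in the rest, and the H3K9me2 bar at 72.7%.

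Of H3K27me3 regions of 5 kb or more, 11 lay in deserts, 9 of them higher in the second pair, against 7196 of 7219 in the rest. They held 4 regions of the Sall3 to Galr1 desert, and 2 between the helicase gene Dhx35 and Gm826 on chromosome 2. Those higher in the first pair lay between Unc5d, a netrin receptor gene, and Dusp26, with 362 and 452 in the second pair against 1410 and 1017 in the first in the authors' deposited table, and between Khdrbs3 and Fam135b, with 496 and 817 against 1664 and 1341 there.

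The widest H3K27me3 desert regions after that of 9550 bp described below were also between Sall3 and Galr1 (chr18:81596451-81605150), with 3090 and 2474 for the second pair and 1569 and 1322 for the first, and between Dhx35 and Gm826 (chr2:159599601-159608050), with 3457 and 2905 against 2081 and 1713, as the authors' deposited table lists them. The widest G9a desert region, 3650 bp in the immunoglobulin heavy chain locus (chr12:114779001-114782650), had 228 and 670 for the second pair and 893 and 802 for the first, by the authors' deposited table. The next, between Cntnap5b and Cdh20 (chr1:103236301-103239250), had 135 and 312 for the second pair and 694 and 406 for the first, by the authors' deposited table. Both of these G9a regions were higher in the first pair, and both H3K27me3 regions in the second. The next widest G9a region, 2600 bp in the T-cell receptor alpha locus and described below, was higher in the second pair. Among H3K9me2 desert regions, the widest after that of 10050 bp described below lay 736 kb from Mettl4 (chr17:93984801-93987650). It had 688 and 621 for the second pair and 300 and 343 for the first, by the authors' deposited table. The next, between Manea and Epha7 (chr4:27358701-27361400), had 603 and 623 against 344 and 183, by the authors' deposited table.

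The share also differed by mean value per kb. Among H3K27me3 desert regions in the lowest of 5 classes of mean value per kb, 10.5% were higher in the second pair, and among those of 200 to 300 per kb 39.8% were, against 23.9% and 61.3% in the rest. For H3K9me2 these shares were 35.6% and 75.3% in deserts and 34.0% and 71.8% in the rest. For G9a they were 18.03% of 9522 regions and 57.8% of 45 in deserts, against 30.5% and 84.7% in the rest. At 300 or more per kb, 43 of 73 H3K27me3 desert regions were higher in the second pair, against 75.1% of the rest. In that class the G9a shares were lower than at 200 to 300 per kb, with 1 of 5 in deserts and 58.7% in the rest, and H3K9me2 had 7 of 7 in deserts and 65.9% in the rest. Desert regions had a lower mean value per kb than the rest for G9a (median 126 against 132) and H3K27me3 (140 against 159), and a higher one for H3K9me2 (135 against 131).

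The H3K27me3 desert region with the smallest p among those higher in the second pair lay in the Sall3 to Galr1 desert (chr18:81700051-81709600, 718 kb from Sall3). It had 3582 and 3045 for the second pair and 1574 and 1627 for the first, by the authors' deposited table, with a log2 difference of 1.05 and a p of 5.46e-132. Next was a region between Got2, a mitochondrial aminotransferase gene, and the cadherin gene Cdh8 (chr8:96660351-96664200), where the authors' deposited table gave 2018 and 1755 for the second pair and 539 and 853 for the first (log2 1.44). A region between Gfra2, a neurturin receptor gene, and Gm9195 (chr14:71803401-71810100) had 2110 and 1923 for the second pair and 1200 and 763 for the first, by the authors' deposited table (log2 1.04). In all 3 the pairs did not overlap, as in 72.2% of all H3K27me3 desert regions, and the 3 were chosen for a small deposited p. Limma's adjusted p was 0.361 for each.

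Among H3K27me3 desert regions higher in the first pair, the one with the smallest p lay 1675 kb from Ncam2 (chr16:83298301-83300800). It had 102 and 43 for the second pair and 513 and 928 for the first, with a log2 difference of -3.30 and p listed as 8.4e-133 in the authors' deposited table. In the immunoglobulin heavy chain locus (chr12:114716701-114721100), the authors' deposited table gave 217 and 288 in the second pair, against 1351 and 908 in the first (log2 -2.16). Between Olfm4 and the protocadherin gene Pcdh17 (chr14:82401351-82403150) it gave 48 and 51 in the second pair, against 648 and 388 in the first (log2 -3.36). The pairs did not overlap at any of these 3 regions, which were also chosen for a small deposited p, and the limma adjusted p was again 0.361.

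For G9a, a region between Nox3, an NADPH oxidase gene of the inner ear, and the chromatin remodeller gene Arid1b (chr17:4442751-4443800) had 598 and 206 for the second pair and 27 and 41 for the first, by the authors' deposited table. The log2 difference was 3.53, and the authors' deposited table listed p as 1.97e-78. A region in the T-cell receptor alpha locus (chr14:53685751-53688350) had 983 and 451 for the second pair and 257 and 213 for the first, by the authors' deposited table (log2 1.61). Between the potassium channel gene Kcnv1 and Csmd3 (chr15:46292851-46293800) it was 222 and 223 for the second pair and 17 and 8 for the first, by the authors' deposited table (log2 4.05). The libraries of the second pair were alike at this last region, and library 1 was well above library 2 at the others.

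The G9a region with the smallest p among those higher in the first pair lay between the ephrin receptor gene Epha7 and the kinase gene Map3k7 (chr4:29854551-29855650), with 4 and 59 for the second pair and 688 and 123 for the first, by the authors' deposited table (log2 -3.64). A region between the arginine methyltransferase gene Prmt6 and the amylase gene Amy2b (chr3:112267201-112268350) was listed with 0 and 54 for the second pair and 590 and 116 for the first, by the authors' deposited table. Between Ripk2 and the metalloproteinase gene Mmp16 (chr4:16742651-16743700) the authors' deposited table gave 2 and 27 in the second pair, against 262 and 314 in the first (log2 -4.22). In each, library 1 of the second pair was the lowest of the 4, and it is the library with many values of 0. Limma gave an adjusted p of 0.461 for these 3 regions and the 3 higher in the second pair.

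The H3K9me2 desert region with a p listed as 0 lay between Bcl11a, a transcription factor known in humans for silencing fetal globin, and the Fanconi anaemia gene Fancl (chr11:25099651-25100850). It had 1212 and 2622 for the second pair and 222 and 211 for the first, by the authors' deposited table, and its log2 difference was 3.14. An H3K27me3 region over it had 172 and 548 for the second pair and 221 and 124 for the first, by the authors' deposited table, so there the pairs overlapped. The widest H3K9me2 desert region, 10050 bp between the cadherin genes Cdh10 and Cdh12 (chr15:19708251-19718300), had 3296 and 2626 for the second pair and 1318 and 1109 for the first, by the authors' deposited table (log2 1.29). Between Lrrc4c, which encodes a synaptic ligand of netrin-G, and Iftap (chr2:98476751-98478200) it was 462 and 597 for the second pair and 139 and 2 for the first, by the authors' deposited table (log2 2.89).

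Of the H3K9me2 regions higher in the first pair, one between the otolin gene Otol1 and Sis, the sucrase-isomaltase gene (chr3:71798701-71800100), had 17 and 51 for the second pair and 402 and 222 for the first, by the authors' deposited table (log2 -3.16). A region in the immunoglobulin kappa locus (chr6:68367201-68368050) was listed with 0 and 19 for the second pair and 216 and 207 for the first, by the authors' deposited table. Between Pabpc4l and the protocadherin gene Pcdh18 (chr3:47735401-47736950) the values were 79 and 46 for the second pair and 369 and 339 for the first, by the authors' deposited table (log2 -2.48). Limma's adjusted p was 0.389 for each of these and for the 3 regions higher in the second pair.

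A short stretch between Fbxo15 and Neto1 on chromosome 18 held the desert regions with the highest mean per kb in the G9a and H3K27me3 tables, and in the H3K9me2 table the next after the Bcl11a to Fancl region. The G9a region there (chr18:85697601-85698700) had 909 and 757 for the second pair and 415 and 383 for the first, by the authors' deposited table (log2 1.06). H3K9me2 (chr18:85697651-85698600) had 442 and 577 in the second pair, against 169 and 427 in the first, by the authors' deposited table. An adjoining H3K9me2 region (chr18:85696001-85697650) went the other way, with 233 and 269 against 502 and 318, by the authors' deposited table. H3K27me3 split into neighbouring regions of opposite direction, 682 and 647 in the second pair against 475 and 591 in the first (chr18:85697851-85698350) and 314 and 260 against 401 and 422 (chr18:85698351-85698750), as the authors' deposited table lists them. The G9a region with the next highest mean per kb lay in the immunoglobulin kappa locus (chr6:69516601-69517050), where the authors' deposited table gave 102 and 77 for the second pair and 335 and 89 for the first, and the pairs overlapped.

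Of the G9a desert regions, 33.5% overlapped an H3K9me2 region by 1 bp or more, against 19.05% of the G9a regions in the rest, and 23.6% of the H3K9me2 desert regions overlapped a G9a region, against 32.3% in the rest. G9a desert regions overlapped H3K27me3 in 41.1%, against 56.5% in the rest, and 21.4% of H3K27me3 desert regions overlapped G9a, against 36.9%. H3K9me2 desert regions overlapped H3K27me3 in 42.2%, against 53.6% in the rest, and 31.2% of H3K27me3 desert regions overlapped H3K9me2, against 22.8%. These shares move with how densely each table covers deserts, given above. Of the overlapping G9a and H3K27me3 desert regions, 71.4% of the G9a regions met one of the same direction, against 67.7% in the rest. In deserts most of these were higher in the first pair (785 higher in the second and 5254 in the first). The shares of the same direction, 71.4% and 67.7%, cannot be compared directly, since one-sided lists meet in the same direction more often. In deserts 23.2% of G9a and 18.3% of H3K27me3 regions were higher in the second pair, against 45.7% and 44.7% in the rest.

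Regions of all 3 tables met at 3357 G9a, 3499 H3K9me2 and 3589 H3K27me3 desert regions, 16.3%, 11.9% and 9.03% of each. Of the G9a regions, 227 met regions that were all higher in the second pair and 1221 regions that were all higher in the first. Lists that lean to the first pair, as those of G9a and H3K27me3 did in deserts, meet in that direction more often. These counts were not made for the rest, so they do not show a trait of deserts. The 2 deserts at the start of a chromosome, next to the centromere, held 9, 9 and 11 regions of G9a, H3K9me2 and H3K27me3.

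Most desert regions lay over no annotated gene at all: 89.3% of those of G9a, 89.99% of H3K9me2 and 89.4% of H3K27me3. The rule looks only at protein-coding genes, so it also took the antigen receptor loci Igk, Igh and Tcra, whose variable segments RefSeq lists apart, with 521 G9a, 775 H3K9me2 and 868 H3K27me3 regions. Without them the shares higher in the second pair were 23.2%, 46.9% and 18.4%. In Igh, H3K27me3 values summed to 13640 and 11572 in the second pair, against 35118 and 32486 in the first, and in Igk to 34822 and 27694 against 69673 and 60516. In Tcra they were level, with 33797 and 29887 in the second pair and 33999 and 29468 in the first, and 45.0% of 189 regions were higher in the second pair.

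Of 298 lncRNA genes in deserts, 284 were overlapped by a region. H3K27me3 regions in lncRNA bodies were higher in the second pair in 24.0% of 2944, against 17.9% of 35517 over no gene. Gm32647, 1284 kb long on chromosome 7 beside the teneurin gene Tenm4, had most regions. Its H3K27me3 values summed to 23654 and 18928 in the second pair, against 41226 and 37218 in the first, and its H3K9me2 values to 18076 and 18233 against 17374 and 16801. In 1700019L22Rik, 4930474G06Rik, Gm40677, 6530403H02Rik and 5730522E02Rik, the next by number of regions, H3K27me3 regions higher in the second pair were between 19.3% and 37.8%. G9a regions higher in the second pair were between 5.26% and 18.2% in these 5.

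At the promoter printed above for Gm36667, in the Auts2 to Castor2 desert, the G9a region had 372 and 262 for the second pair and 6 and 120 for the first, by the authors' deposited table (log2 2.31). The window held 3 CG. The window of Gm6634, with 1 CG, lay under a G9a region listed at 0 in both libraries of the second pair, and at 48 and 89 in the first, in the authors' deposited table. That of LOC108169192, also with 1 CG and within the immunoglobulin kappa locus, lay under an H3K9me2 region with 90 and 281 for the second pair and 80 and 68 for the first in the authors' deposited table (log2 1.31). That of C230079O03Rik, in the Mki67 to Mgmt desert, held 7 CG, the most of the 6, and 51.7% of all promoter windows held at least as many. Its H3K27me3 region had 868 and 1115 for the second pair and 518 and 560 for the first, by the authors' deposited table (log2 0.88). At Gm30954, whose window held 1 CG, the H3K27me3 region had 4 and 1 for the second pair and 181 and 107 for the first, by the authors' deposited table (log2 -5.37).

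The promoter of Gm33758, in the desert next to Lmo4, lay under regions of opposite direction. H3K9me2 had 121 and 46 for the second pair and 243 and 309 for the first, by the authors' deposited table (log2 -1.71). H3K27me3 had 426 and 300 for the second pair and 118 and 290 for the first, by the authors' deposited table (log2 0.83). The pairs did not overlap in either table. Of the desert promoter windows under a region, those under H3K27me3 regions higher in the second pair held a median of 3 CG (22 windows) and those under regions higher in the first 2 CG (41 windows).

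Regions at the 15 miRNA genes were few. At or near them lay 1 G9a region higher in the second pair and 7 in the first, 8 and 4 of H3K9me2, and 4 and 13 of H3K27me3. At Mir344b, an H3K9me2 region over the gene had 122 and 213 for the second pair and 420 and 218 for the first, by the authors' deposited table (log2 -0.93). At Mir344c, with the same seed, it was 321 and 177 for the second pair and 61 and 200 for the first, by the authors' deposited table (log2 0.93), and the pairs overlapped. The regions over these neighbours thus had opposite listed directions within 1 cluster of chromosome 7, next to the imprinted gene Ndn. Both directions also occurred at Mir344b itself. An adjoining H3K9me2 region had 162 and 152 for the second pair and 145 and 59 for the first, by the authors' deposited table (log2 0.62). Another near Mir344b was higher in the first pair. Near Mir344h-1 a G9a region had 24 and 75 for the second pair and 129 and 138 for the first, by the authors' deposited table (log2 -1.41).

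In the desert between Tmpo and Nedd1, the H3K27me3 region over Mir135a-2 had 109 and 29 for the second pair and 152 and 141 for the first, by the authors' deposited table (log2 -1.08). The one over Mir1251 in the same desert had 94 and 113 for the second pair and 74 and 67 for the first, by the authors' deposited table (log2 0.55). An H3K27me3 region 340 bp from Mir1251 had 96 and 38 for the second pair and 211 and 114 for the first, by the authors' deposited table (log2 -1.27). One 1516 bp from Mir135a-2 had 153 and 139 against 70 and 47 there (log2 1.30). Regions of both directions thus lay within 2500 bp of either gene. Over Mir3961, in the Cetn3 to Mef2c desert with the lowest H3K9me2 share, the H3K9me2 region had 12 and 39 for the second pair and 66 and 43 for the first, by the authors' deposited table (log2 -1.07).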

How the data were processed

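Chromatin immunoprecipitation with sequencing was done for G9a, H3K9me2 and H3K27me3 in 2 TAC and 2 sham libraries each. BWA 0.7.10-r789, SAMtools 1.1 and the build mm10 are named in the submitters' processing notes. No source used here gives the region caller, the input correction or the scaling. Each deposited table gives a region on a grid of 50 bp, a direction, 4 whole numbers and the authors' −log10 p, the largest p being 0.01. The unit of the 4 deposited values is not stated, and they were not treated as raw counts, so no count model was run.

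The distance of each region midpoint to protein-coding gene bodies was taken from RefSeq genes on GRCm38.p6. log2 differences used a pseudocount of 1. limma 3.58.1 (R 4.3.3) was fitted on log2(value + 1) over all regions of a table with Benjamini-Hochberg adjustment. The code of the fit was tested on simulated data. Their spread was smaller than that of these libraries, so that test does not show how limma performs on them. Shares of signal were compared by exact permutation over libraries. Other values came from Python 3.11.15 with pandas 2.3.3, numpy 2.4.6 and scipy 1.17.1.

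The regions named are, per table and direction, the 3 with the smallest deposited p (at most 1 per desert), and per table the 2 with the highest mean per kb and the 3 widest. The deserts named are the 10 with most regions, the 3 longest, and per table the 3 with the largest share higher in either pair among those with 50 or more regions. For 2 deserts that this rule takes, the results are not reported here. Promoter windows on chromosome 18 were not considered in choosing the 6 to print, but they are part of the window counts and medians. The lncRNA genes are the 6 with most regions. The rule, the members and the gene lists were chosen with earlier results of these data known. Alternatives were other distances, pseudocounts, scaling, filters on p and mean, overlap rules and leaving out each library.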

Additional observations from a re-analysis of the deposited data

How the results depend on the processing

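With deserts at 250000 bp, the share higher in the second pair was 29.1% for G9a and 26.2% for H3K27me3, and at 1000000 bp it was 21.7% for G9a, 47.7% for H3K9me2 and 13.7% for H3K27me3. Where any annotated gene bounded a desert it was 21.8%, 49.7% and 11.6%, but only 202 G9a, 344 H3K9me2 and 379 H3K27me3 regions were left there. Among separated regions it was 21.1% for G9a and 16.7% for H3K27me3, and at a deposited p of 1e-4 or less 19.2%, 47.7% and 14.9%. Leaving out 1 library gave 19.9% to 28.8% for G9a, 45.6% to 48.6% for H3K9me2 and 17.95% to 23.8% for H3K27me3. The median log2 difference then ran from -1.81 (without library 2 of the second pair) to -0.44 (without library 1 of it) for G9a, and from -0.25 to -0.10 for H3K9me2, while limma called 0 to 4419 G9a desert regions, 4419 of them without library 2 of the second pair, where 14.5% of all regions of the table were called. The H3K9me2 median was -0.54 with a pseudocount of 10, -0.41 with libraries scaled to the same median and -0.54 with a mean of 50 or more. Scaling put the H3K27me3 median at -0.79, with -0.24 in the rest, and the G9a median at -0.84, with -0.33 in the rest. The ratio of regions per Mb, deserts over the rest, was 0.692 for G9a, 1.53 for H3K9me2 and 0.979 for H3K27me3 at 250000 bp, and 0.601 for G9a and 0.787 for H3K27me3 at 1000000 bp. By bases covered it was 0.477, 1.54 and 0.603, and at a p of 1e-4 or less 0.594 for G9a and 0.907 for H3K27me3. A stricter overlap, relative to the shorter region, left 27.9% of G9a desert regions over H3K9me2, 34.7% over H3K27me3, and 34.8% of H3K9me2 over H3K27me3, and the p of 1e-4 left 21.0%, 32.3% and 34.4%. The cause of these shifts was not tested. No direction was reversed under any alternative run. Leaving out the antigen receptor loci, and the other distances and p for the signal shares, were chosen after seeing the data, and these kept their values within the spread or their direction. No paired analysis was possible because the values carry no replicate number. The depth is unknown, and 2 libraries against 2 cannot give an exact p below 0.333.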

Other observations

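On chromosome X, outside the autosomal rule, few regions lay more than 500 kb from every protein-coding gene. Of 186 such H3K27me3 regions 15 were higher in the second pair (8.06%, against 35.6% of all H3K27me3 regions of the chromosome), with summed values of 6973 and 7980 in the second pair and 19031 and 18061 in the first. Of 131 H3K9me2 regions 83 were (63.4%, against 62.6% of all of them on the chromosome), with 10357 and 10194 in the second pair and 7385 and 8441 in the first. G9a had 18, of which 7 were higher in the second pair (38.9%, against 41.8% of all). The H3K9me2 and G9a shares were thus near those of the whole chromosome. In the H3K27me3 and H3K9me2 tables the pairs did not overlap.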
